A study of Mus musculus with 8 samples.

Results

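Potassium channel genes were taken as all protein-coding mouse genes whose symbol begins with Kcn, which gave 94 genes of the 27179 in the count table. By symbol, 40 encode voltage-gated channel subunits, 15 inward rectifiers, 14 two-pore channels, 8 calcium-activated channels (with their sodium-activated relatives) and 17 accessory subunits. RNA came from neonatal cardiomyocytes (NCMs) of male C57Bl/6J mice collected on postnatal day 0 (PND0). Dams breathed filtered air (FA) or diesel exhaust (DE) from embryonic day 0.5 until late gestation, and each library held the NCMs of 1 heart, trimmed of atrial and vascular tissue, with fibroblasts removed by attachment to a plate in the presence of Ara-C. The FA group had 4 libraries (replicates 2, 3, 4 and 6) and the DE group had 4 (replicates 1, 3, 5 and 7). Sample names also carry a number, which is 11 in all FA libraries and in DE replicates 1 and 7, and 12 in DE replicates 3 and 5, and its meaning is not stated. Whether hearts of a group came from separate litters is not given either, so p-values measure the spread between these libraries.

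Libraries held between 17943024 and 39839737 counts. Levels are in CPM, the counts of a gene scaled to a common library size with TMM factors, and comparisons of level between genes use CPM per kb of exon. Cardiomyocyte markers were abundant in every library. Their summed level ran from 62023 to 65848 CPM in FA and from 52094 to 59956 CPM in DE without overlap. Of those 9 markers, Myh6 and Pln fell and Myh7 rose, and only Myh7 had a positive sign. Fibroblast markers summed to 1339 to 2220 CPM in FA and 2454 to 4078 CPM in DE without overlap, and 3 of the 8 (Col1a1, Dcn and Thy1) rose while all 8 had a positive sign. Endothelial, smooth muscle and pericyte, leukocyte, erythroid, atrial, conduction, and neuron and Schwann markers overlapped between groups in sum and held 0 genes past the test. No marker found in the table was at 0 in all libraries. In bulk RNA, fewer cells of a type and less RNA per cell cannot be told apart.

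Potassium channels set the resting potential of cardiomyocytes and end each action potential by letting potassium leave the cell. Voltage-gated channels carry the transient and delayed outward currents, inward rectifiers hold the resting potential and respond to G proteins or ATP, two-pore channels pass a background leak, and accessory subunits change the gating or trafficking of the pore subunits. The neonatal heart is known to shift its set of channels as the action potential shortens after birth.

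Few channel genes accounted for most of the channel RNA. Of the 94 genes, 37 had a mean of at least 1 CPM in FA and 12 had at least 10 CPM, and these 12 held between 85.4 and 88.2% of all Kcn CPM in the FA libraries and between 80.8 and 86.7% in the DE libraries. Summed over all 94 genes, the level was 769 to 870 CPM in FA and 701 to 805 CPM in DE, so the groups overlapped. The filter on low counts kept 53 members for testing, namely 19 voltage-gated, 10 inward rectifier, 5 two-pore, 6 calcium-activated and 13 accessory genes. Of the 41 left out, 4 (Kcnk15, Kcnk9, Kcns2 and Kcnv1) had no count in any library, 26 had at most 20 counts in total, and the highest total was 179 counts, for Kcne3. A count of 0 allows up to 0.0748 CPM in the deepest library and 0.169 CPM in the shallowest, counting error alone considered.

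Per kb of exon, Kcne1 stood first in FA at 41.2 ± 4.93 CPM per kb (SD, n = 4), and its lowest FA library lay above the highest of the next gene. Kcne1 encodes the accessory subunit that slows the delayed rectifier Kcnq1. Kcng2, a voltage-gated subunit that is silent alone, followed with 27.1 ± 2.29 CPM per kb and Kcnh2, the pore of the rapid delayed rectifier, with 25.9 ± 2.69 CPM per kb, and the ranges of these 2 genes overlapped. Kcnj5 (18.7 ± 1.26 CPM per kb) and Kcnq1 (17.6 ± 1.91 CPM per kb) came next, overlapping each other and lying below Kcnh2. Kcnj11 (13.7 ± 1.81 CPM per kb) and Kcnk3 (12.0 ± 1.22 CPM per kb) also overlapped, as did Kcnj2 (8.28 ± 1.37 CPM per kb) and Kcnip2 (8.03 ± 0.998 CPM per kb). From Kcnj8, at 3.76 ± 0.912 CPM per kb, down to Kcne4, at 1.19 ± 0.521 CPM per kb, each of these 11 genes overlapped the next one down in FA, while Kcnj8 lay below Kcnip2 without overlap.

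**Figure D1:**
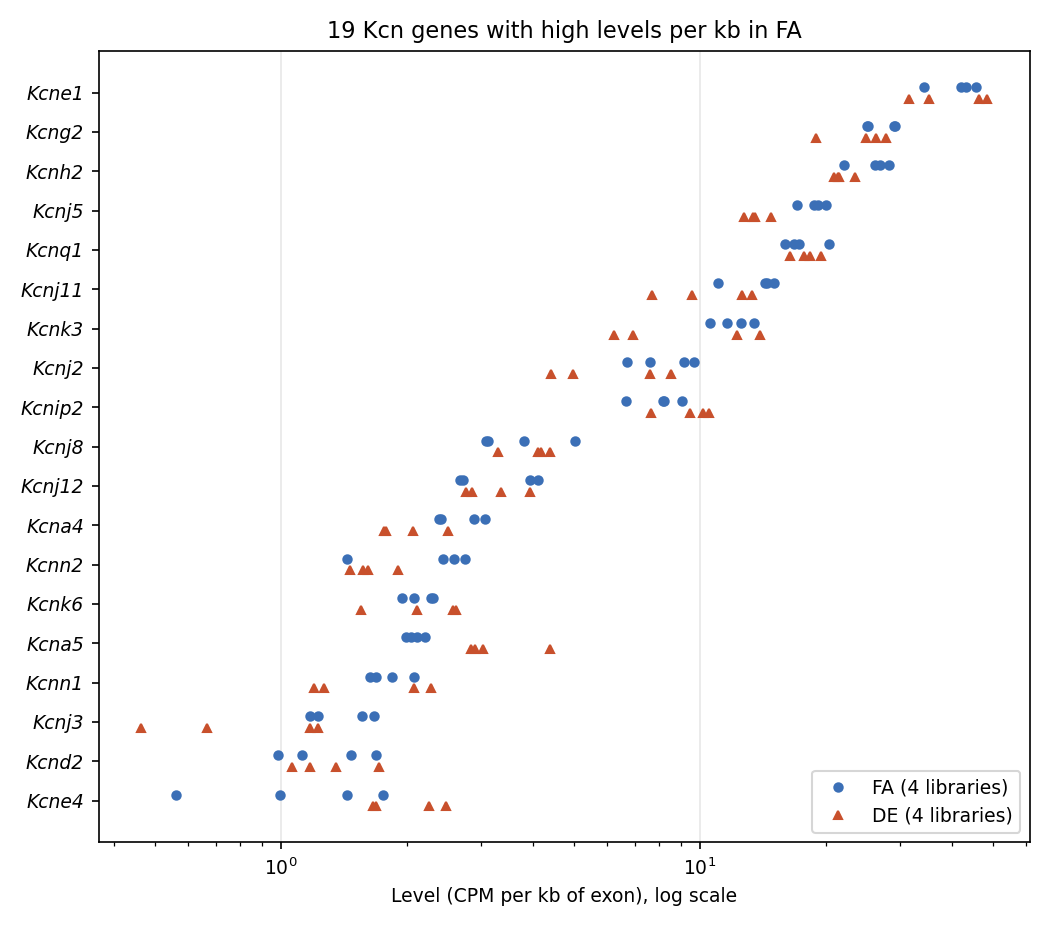
Level of 19 Kcn genes in CPM per kb of exon on a log axis, ordered by FA mean, each point 1 library (circles FA, triangles DE, 4 libraries each). Kcne1 leads at 41.2 CPM per kb in FA, and DE triangles lie wholly left of FA circles for Kcnj5 and wholly right for Kcna5.

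The comparison of DE with FA asks which channel genes changed after exposure in utero. Calls required a difference of at least 25% and an adjusted p no higher than 0.05. Of the 53 tested members, 6 were called (all tested genes: 5.8%), with 4 higher in DE (all tested genes: 3.58%) and 2 lower (all tested genes: 2.22%). The G protein-gated inward rectifier subunit Kcnj5 fell, whereas the delayed rectifier Kcna5, the two-pore family gene Kcnk7 and the accessory subunits Kcnab2 and Kcne1l rose. At an unadjusted p under 0.05 there were 17 members, 7 higher and 10 lower (all tested genes: 25.6%), and 10 had no overlap in CPM between FA and DE libraries (all tested genes: 14.7%). The median log2 fold change was -0.02 over the 53 members and 0.00 over all 14966 tested genes. By subfamily, 2 of 19 voltage-gated, 1 of 10 inward rectifier, 1 of 5 two-pore, 0 of 6 calcium-activated and 2 of 13 accessory genes were called.

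**Figure D2:**
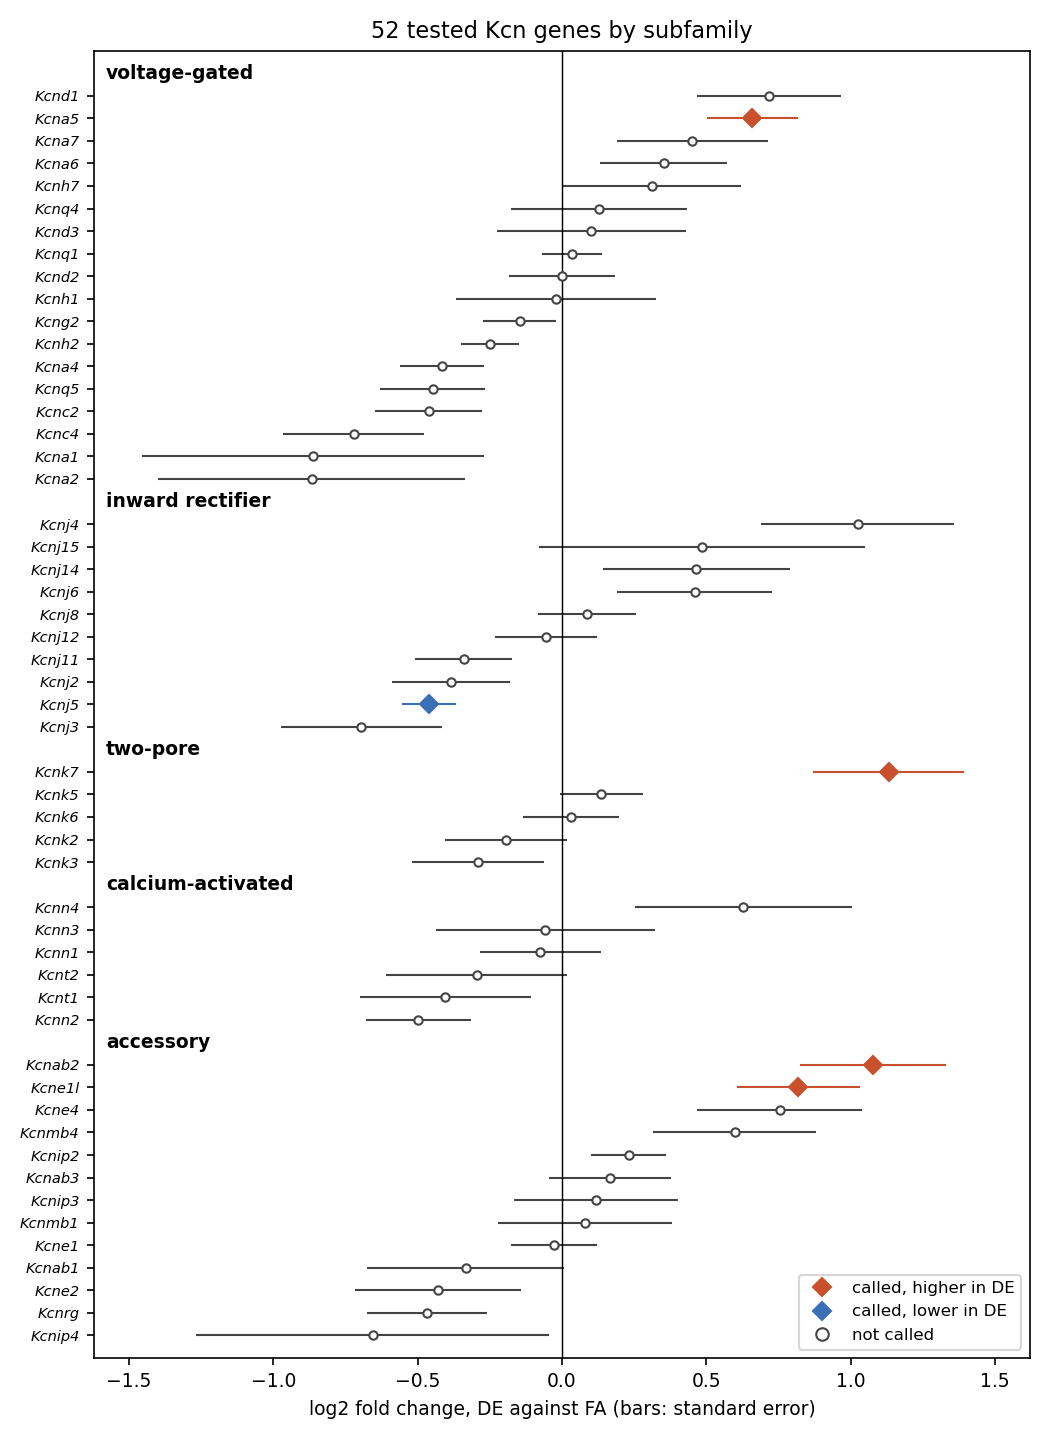
Log2 fold change of DE against FA (bars: standard error) for 52 tested Kcn genes, ordered within subfamily. Filled diamonds are called genes, 4 right of 0 and 1 (Kcnj5) left of it, and open circles are genes that were not called.

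The called gene with the most counts in each direction, Kcnj5 for the falls and Kcna5 for the rises, is shown with the 250 bases before its RefSeq start (GRCm38.p6, 5′ to 3′ on the gene's strand). The calls concern RNA levels, and a part of these sequences in them was not tested. The window of Kcnj5 is chr9:32344345-32344594 (minus strand, 58% GC, 7 CpG) and that of Kcna5 is chr6:126535556-126535805 (minus strand, 53.2% GC, 3 CpG), against a median of 52.4% GC and 6 CpG over 32851 such windows. Capitals mark the letters GGGCGG, the core of a GC box.
Kcnj5: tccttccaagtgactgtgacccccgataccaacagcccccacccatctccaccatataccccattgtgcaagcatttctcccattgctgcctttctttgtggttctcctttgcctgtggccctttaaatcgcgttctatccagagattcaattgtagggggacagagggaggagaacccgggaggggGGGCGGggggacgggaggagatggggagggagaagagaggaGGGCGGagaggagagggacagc
Kcna5: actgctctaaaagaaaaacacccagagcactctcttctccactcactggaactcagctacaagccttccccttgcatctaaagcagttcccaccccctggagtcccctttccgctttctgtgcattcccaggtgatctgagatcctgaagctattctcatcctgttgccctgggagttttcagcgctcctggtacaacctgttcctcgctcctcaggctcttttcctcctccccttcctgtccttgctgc
Both strands were searched for 5 short motifs, and no match overlapped another. These were TATAAA as the TATA element, GGGCGG as the GC-rich element, AGATAA as the element bound by GATA factors, AGGTCA as the element bound by nuclear receptors and CACGTG as the E-box. Kcnj5 held GGGCGG at 63 and 22 bases before the start, and Kcna5 held none of the 5. Of all windows of this length, 32.7% held GGGCGG, 14.0% AGGTCA, 12.4% TATAAA, 9.99% AGATAA and 6.02% CACGTG. Among the other called genes, GGGCGG (on the opposite strand) also stood before Kcne1l, Kcnk7 and 1 of the 3 starts listed for Kcnab2. Promoters were listed for 69 of the 94 members.

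Inward rectifiers were the subfamily whose summed level did not overlap between groups. It ran from 193 to 232 CPM in FA and from 168 to 176 CPM in DE. With library totals alone it ran from 188 to 229 CPM and from 169.9 to 182 CPM. Of its 10 tested members, 5 had a positive and 5 a negative sign. With TMM factors, the lowest FA sum (replicate 6, 193 CPM) and the highest DE sum (replicate 1, 176 CPM) held 79.6 and 59.5 CPM of Kcnj5. That gap in Kcnj5 exceeded the gap between the sums, so the groups overlapped without this gene. Kcnj5 (chr9:32314706-32344380), which forms the acetylcholine-gated atrial channel together with Kcnj3, had the highest CPM of the 15. It stood at 89.7, 87.5, 93.6 and 79.6 CPM in FA replicates 2, 3, 4 and 6 and at 59.5, 63.2, 62.8 and 69.3 CPM in DE replicates 1, 3, 5 and 7. Every DE library lay below every FA library, whether its name held 11 or 12. The fit gave a log2 fold change of -0.46 (SE 0.09, adjusted p = 0.0196), a level in DE of 72.7% of that in FA. Of 5 atrial markers 0 were called, with Nppa, which made up most of their summed CPM, at a log2 fold change of -0.82 (SE 0.26, adjusted p = 0.0821) and Myl7, Myl4, Sln and Nr2f1 at 0.24 to 0.52, and their part in the difference was not tested.

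Its partner Kcnj3 measured 8.15, 6.13, 8.69 and 6.39 CPM in FA and 6.38, 3.47, 2.42 and 6.13 CPM in DE, with the log2 fold change at -0.70 (SE 0.28, adjusted p = 0.149). DE replicates 3 and 5 were low and the other DE libraries lay at the lower edge of FA. Kcnj2, the main pore of the resting inward rectifier current in ventricle, measured 52.6, 36.5, 49.9 and 41.4 CPM in FA and 41.3, 24.0, 27.0 and 46.3 CPM in DE. Again only DE replicates 3 and 5 lay below FA, and the test gave -0.39 (SE 0.20, adjusted p = 0.258). Kcnj12, a second subunit of that current, differed by -0.06 (SE 0.18, 95% interval -0.40 to 0.29).

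The ATP-sensitive channels pair Kcnj11 or Kcnj8 with a sulfonylurea receptor, Abcc8 or Abcc9. Kcnj11 stood at 53.2, 55.3, 52.5 and 40.6 CPM in FA and 35.2, 46.4, 49.0 and 28.3 CPM in DE. DE replicates 1 and 7 lay below all FA libraries and replicates 3 and 5 within them, and the log2 fold change was -0.34 (SE 0.17, adjusted p = 0.23). Kcnj8 averaged 9.59 ± 2.32 CPM in FA libraries and 10.2 ± 1.21 CPM in DE libraries (SD, n = 4). Abcc9 measured 401 ± 70.2 CPM in FA and 298 ± 55.8 CPM in DE (log2 fold change -0.43, SE 0.16, adjusted p = 0.12) and Abcc8 53.5 ± 2.12 and 57.6 ± 5.74 CPM. None of these 4 genes passed the test over exposure alone. With the number in the sample name as a term Kcnj11 passed the test (-0.66, adjusted p = 0.0346). That difference rests on DE replicates 1 and 7 against FA, and among libraries with number 11 only Kcnj11 was not called. With length and GC offsets Kcnj11 (-0.48, adjusted p = 0.0387) and Abcc9 (-0.32, adjusted p = 0.0486) were called.

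Among the low inward rectifiers, Kcnj4 gave the largest positive difference. It measured 1.82, 2.29, 2.09 and 0.984 CPM in FA and 2.03, 4.62, 5.26 and 2.51 CPM in DE. DE replicates 3 and 5 were highest and replicate 1 lay within FA. The test gave a log2 fold change of 1.02 (SE 0.33, adjusted p = 0.0919 with the quasi-likelihood test, 0.0320 with DESeq2 and 0.0378 with the likelihood ratio test). Its relative Kcnj6, outside the rule for named genes and chosen after its values were seen, showed the same libraries high, with 1.78 and 1.57 CPM in DE replicates 3 and 5 against 0.853 to 1.05 CPM in the other 6.

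Of the voltage-gated subunits, 8 of 19 had an unadjusted p under 0.05, 2 higher and 6 lower in DE, where 25.6% of all tested genes did. Kcng2, the most abundant of them per kb, measured 81.1 ± 6.85 CPM in FA and 73.2 ± 11.7 CPM in DE (log2 fold change -0.15, SE 0.13, adjusted p = 0.49). Amigo1, a membrane protein that associates with voltage-gated channels, measured 9.87 ± 1.65 and 7.75 ± 1.06 CPM (log2 fold change -0.35, SE 0.15, adjusted p = 0.188). Neither gene passed the test.

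Kcna5 (chr6:126532551-126535555), the ultrarapid delayed rectifier Kv1.5, measured 6.31, 5.68, 5.87 and 6.05 CPM in FA and 8.71, 12.6, 8.31 and 8.15 CPM in DE. The FA libraries lay close together, every DE library was above them and DE replicate 3 stood apart. The log2 fold change was 0.66 (SE 0.16, adjusted p = 0.0356). Kcna4, the slowly recovering transient outward channel of the same family, measured 14.8, 11.7, 13.9 and 11.6 CPM in FA and between 8.52 CPM (replicate 3) and 12.1 CPM (replicate 7) in DE. Only DE replicate 7 overlapped FA, and the log2 fold change was -0.42 (SE 0.15, adjusted p = 0.108).

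The fast transient outward current is formed by Kcnd2 and Kcnd3 with the calcium-binding subunit Kcnip2. Kcnd2 measured 6.78 ± 1.66 CPM in FA and 6.84 ± 1.48 CPM in DE, with a 95% interval of the log2 fold change from -0.36 to 0.36. Kcnd3 stood at 2.70 to 3.05 CPM in FA and at 5.84 CPM in DE replicate 1 against 1.70 to 2.52 CPM in the other DE libraries, so that 1 library set its positive log2 fold change of 0.10 (SE 0.33), which without it was -0.42. Kcnip2 measured 27.9 ± 3.47 CPM in FA and 32.8 ± 4.48 CPM in DE (log2 fold change 0.23, SE 0.13, adjusted p = 0.282). Kcnd1, a low member of the same family, measured 0.349 to 0.455 CPM in FA and 0.533 to 0.787 CPM in DE without overlap (log2 fold change 0.72, SE 0.25, adjusted p = 0.107).

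The delayed rectifiers that end the action potential in large mammals were among the most abundant channels. Kcnh2 measured 130.2, 137, 127 and 107 CPM in FA and 101, 104, 113 and 103 CPM in DE. All DE libraries lay near or below the lowest FA library, with DE replicate 5 overlapping it, and the log2 fold change was -0.25 (SE 0.10, adjusted p = 0.151). Kcnq1 measured 71.9 ± 7.82 CPM in FA and 73.6 ± 5.18 CPM in DE, with a 95% interval of the log2 fold change from -0.17 to 0.24. Its accessory subunit Kcne1 measured 135, 146, 109.8 and 139 CPM in FA and 101, 149, 156 and 113 CPM in DE, and the interval was -0.32 to 0.26. In DE, Kcne1 split by the number in the name, with both libraries of number 12 above both of number 11. Akap9, which anchors protein kinase A at the Kcnq1 channel, measured 154 ± 32.5 and 102 ± 21.8 CPM (log2 fold change -0.59, SE 0.18, adjusted p = 0.0754). With length and GC offsets its log2 fold change was -0.32 (SE 0.08, adjusted p = 0.0256), past the threshold.

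The other voltage-gated members below an unadjusted p of 0.05 were the Kv3 genes Kcnc2 and Kcnc4, known from fast-spiking neurons, and Kcnq5. Kcnc2 measured 3.32 to 3.99 CPM in FA and 1.97 to 3.18 CPM in DE (log2 fold change -0.46, SE 0.19, adjusted p = 0.149). Kcnc4 measured 1.23 to 1.64 CPM in FA and 0.602 to 1.21 CPM in DE (log2 fold change -0.72, SE 0.24, adjusted p = 0.0989). Neither gene overlapped between groups. Kcnq5, a relative of Kcnq1, measured 8.93 ± 1.70 and 6.56 ± 1.35 CPM (log2 fold change -0.45, SE 0.18, adjusted p = 0.15).

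Among two-pore genes, Kcnk3, which encodes the acid-sensitive leak channel TASK-1, was by far the most abundant, and Kcnk7 was the called one. Kcnk7 (chr19:5704471-5707984), a two-pore family member not known to pass current alone, measured 0.909, 0.797, 0.677 and 0.639 CPM in FA and 1.06, 2.15, 1.92 and 1.60 CPM in DE. The groups did not overlap, though DE replicate 1 lay near the highest FA library, and the whole series held 292 counts for this gene. Its log2 fold change was 1.13 (SE 0.26, adjusted p = 0.0323). Its annotated span overlaps Ehbp1l1, which measured 390 ± 45.8 CPM in FA and 327 ± 42.8 CPM in DE (log2 fold change -0.25), and the share of reads that counting could have split between these genes was not tested.

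Kcnk3 measured 49.9, 53.4, 46.2 and 42.1 CPM in FA and 24.8, 48.6, 55.2 and 27.6 CPM in DE. DE replicates 1 and 7 were far below FA, replicate 3 lay within it and replicate 5 slightly above it, which left the comparison of all 8 libraries at -0.29 (SE 0.23, adjusted p = 0.446). Kcnk6 differed by 0.03 (SE 0.17), Kcnk5 by 0.14 (SE 0.14) and the stretch-activated TREK-1 gene Kcnk2 by -0.19 (SE 0.21), on the log2 scale.

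Calcium-activated channel genes held no call. Kcnn2, a small-conductance channel described in atrial myocytes, measured 20.5, 19.4, 18.2 and 10.8 CPM in FA and 10.9, 11.7, 14.2 and 12.0 CPM in DE. FA replicate 6 lay at the DE level and the other FA libraries above it. The log2 fold change was -0.50 (SE 0.18, adjusted p = 0.121), and without FA replicate 6 it was -0.67 (adjusted p = 0.0172). Kcnn1 measured 8.45, 9.52, 7.73 and 7.47 CPM in FA and 5.51, 9.52, 10.4 and 5.81 CPM in DE, a difference of -0.07 (SE 0.21). Kcnt2 differed by -0.30 (SE 0.31). Kcnma1, the large-conductance channel known from smooth muscle, did not pass the filter, with 1.04 CPM in FA replicate 2, 1.27 CPM in DE replicate 1 and 0.0998 to 0.349 CPM in the other 6 libraries.

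Both called accessory genes were low. Kcnab2 (chr4:152390744-152477549), a cytoplasmic β subunit of Kv1 channels, measured 0.8289, 0.349, 0.564 and 0.639 CPM in FA and 1.33, 1.20, 1.32 and 1.39 CPM in DE. The DE libraries lay close together and above all FA libraries, with 226 counts in the whole series. Its log2 fold change was 1.08 (SE 0.25, adjusted p = 0.0337). Its span overlaps Nphp4, which measured 4.77 ± 0.817 and 6.17 ± 1.079 CPM (log2 fold change 0.37) and was not called. Kcne1l (chrX:142304753-142306198), a relative of Kcne1 on the X chromosome, measured 1.10, 1.40, 1.64 and 2.02 CPM in FA and 2.63, 2.24, 2.94 and 2.88 CPM in DE. The groups did not overlap, and the log2 fold change was 0.82 (SE 0.21, adjusted p = 0.0460).

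Of the other accessory genes, Kcne4, an inhibitory partner of Kv1 channels and Kcnq1, measured 3.82, 1.49, 2.65 and 4.67 CPM in FA and 5.99, 6.60, 4.41 and 4.48 CPM in DE. The groups overlapped through FA replicate 6, and the log2 fold change was 0.75 (SE 0.29, adjusted p = 0.131). Kcnrg, named for its effect on channel assembly, differed by -0.47 (SE 0.21, adjusted p = 0.187), and its span overlaps Trim13, which differed by -0.43 (SE 0.13). The summed fibroblast markers were higher in every DE library than in any FA library (3 of 8 markers called). Summed cardiomyocyte markers were lower in every DE library than in any FA library. The part of both in these differences and in the called genes was not tested.

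**Figure D3:**
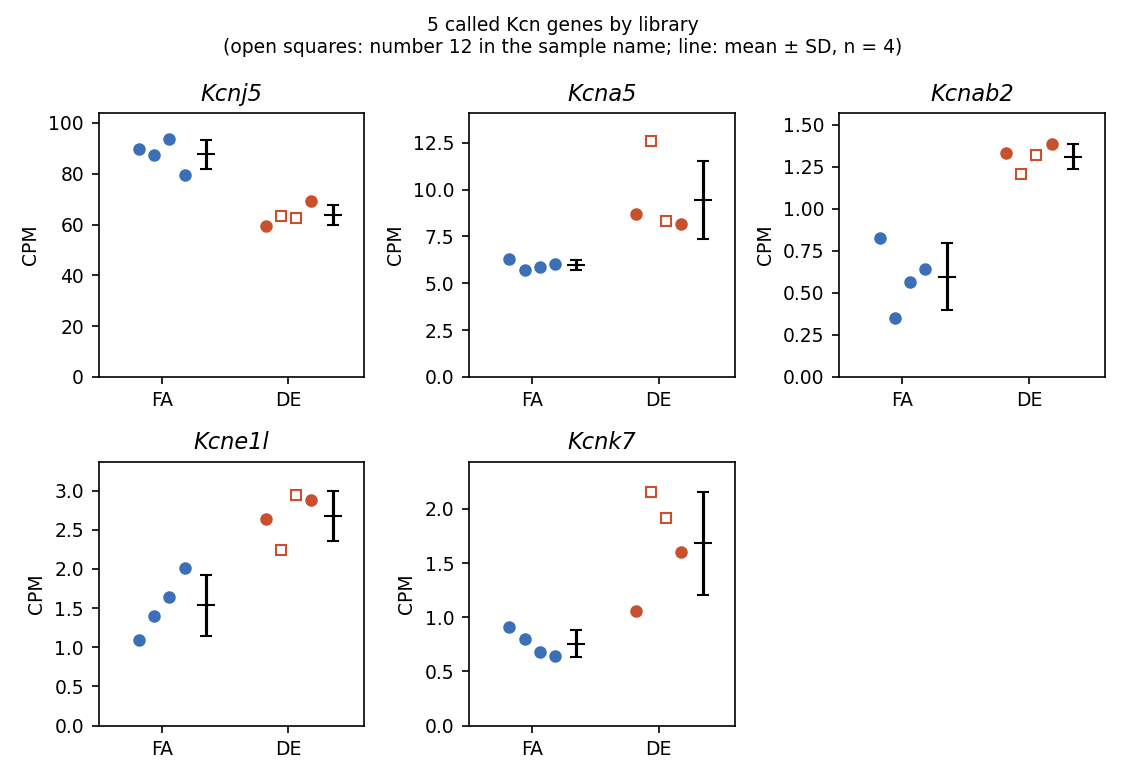
CPM by library for 5 called Kcn genes, with mean ± SD (n = 4) beside each group and open squares for the 2 DE libraries whose names carry the number 12. Kcnj5 lies lower in every DE library and the other 4 genes higher, with DE replicate 3 of Kcna5 at 12.6 CPM.

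Each of the 6 calls depended on which libraries entered the fit, as did the share called over all tested genes, which was 5.8% with all libraries and between 1.53% (FA replicate 4 omitted) and 7.93% (DE replicate 1 omitted) with 7 libraries. Without FA replicate 4 or without DE replicate 3 (all tested genes: 1.82%) the count was 0 members, without FA replicate 2 (all tested genes: 1.69%) it was 1 (Kcnab2), without FA replicate 3 it was 2 (with Kcnj5), without DE replicate 5 it was 2 (Kcna5 and Kcnj5) and without DE replicate 7 it was 3 (with Kcna5 and Kcnj5). Without FA replicate 6 it was 4, with Kcnn2 added and Kcnj5 and Kcne1l among them, and without DE replicate 1 it was 8, with Kcnj4, Kcnc4 and Kcnh3 added and Kcne1l lost. Across the 8 omissions Kcnj5 lost its call in 3, Kcna5 in 5, Kcnab2 in 6 and Kcne1l and Kcnk7 in 7 each. The direction of these 5 genes held under every alternative that tested them. On the log2 scale Kcnj5 lay between -0.51 and -0.39 and Kcna5 between 0.49 and 0.74. Kcnab2 lay between 0.90 and 1.33, Kcne1l between 0.60 and 0.98 and Kcnk7 between 0.74 and 1.30. FA and DE libraries did not overlap for any of them, so leaving out libraries could hardly turn a sign and shows no stability. Kcnab2 was not tested with a mean of at least 1 CPM.

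Several channel genes differed within DE between libraries of the 2 numbers in the sample name, a comparison added after the counts were seen. Between the 2 DE libraries with number 12 and the 2 with number 11, 4 of the 53 members were called (all tested genes: 2.06%). Kcnk3 was higher in number 12 by 0.99 on the log2 scale (SE 0.14, adjusted p = 0.0304) and Kcnn1 by 0.82 (SE 0.17, adjusted p = 0.0408). Kcnj3 (log2 fold change -1.09, SE 0.23, adjusted p = 0.0415) and Kcnj2 (-0.78, SE 0.17, adjusted p = 0.0445) were lower in number 12. For Kcnk3 and Kcnn1 the number 11 libraries of DE lay below FA, and for Kcnj2 and Kcnj3 the number 12 libraries did. Within FA, where every library carries 11, replicates 2 and 4 lay above replicates 3 and 6 for Kcnj2 and Kcnj3. The Kcnj2 values were 52.6 and 49.9 against 36.5 and 41.4 CPM, and the Kcnj3 values 8.15 and 8.69 against 6.13 and 6.39 CPM. Kcnk3 and Kcnn1 had no such split in FA. What separates the libraries within a group was not tested. Leaving out DE replicate 1, 3 or 5 left 0 calls and leaving out DE replicate 7 left 1 (all tested genes: at most 0.123%), and a number is then held by 1 DE library.

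**Figure D4:**
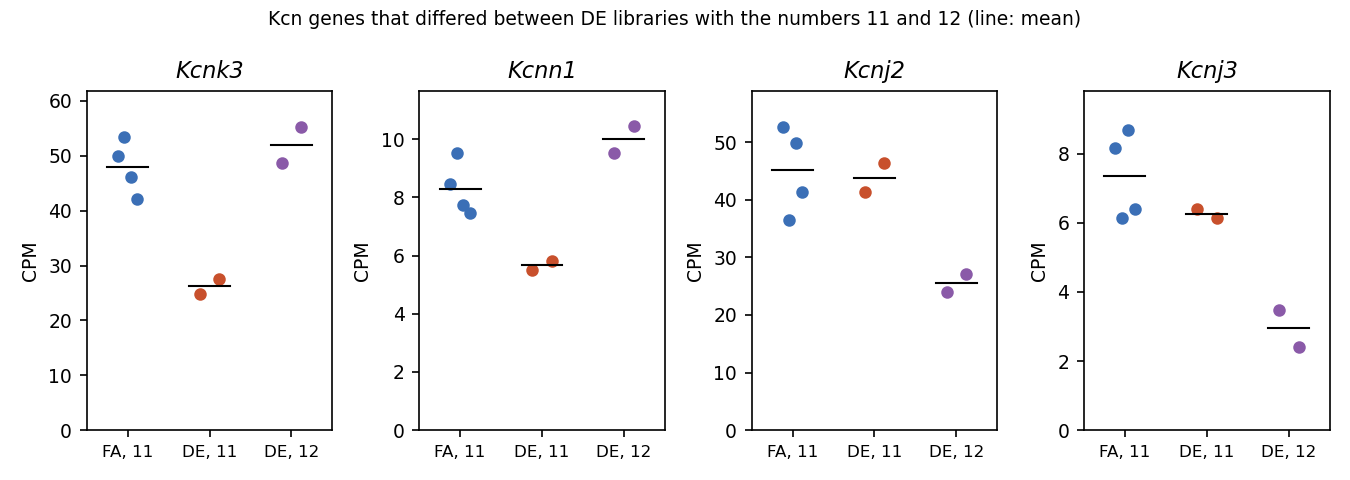
CPM by library (line: mean) for the 4 Kcn genes that differed between DE libraries with the numbers 11 and 12, beside the 4 FA libraries, all with number 11. For Kcnk3, DE replicates 1 and 7 lie at 24.8 and 27.6 CPM and DE replicates 3 and 5 at 48.6 and 55.2 CPM.

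Among libraries with number 11 only, 4 FA and 2 DE, 1 of 52 members was called (all tested genes: 1.75%). This was Kcnk3, lower in DE (log2 fold change -0.88, SE 0.13, adjusted p = 0.0115). The 6 genes called over all libraries were not called there, with log2 fold changes such as -0.45 for Kcnj5, 0.49 for Kcna5, 1.12 for Kcnab2, 0.86 for Kcne1l and 0.74 for Kcnk7. With the number as a term over all 8 libraries, Kcnk3 (-0.87, adjusted p = 0.00526) and Kcnj11 (-0.66, adjusted p = 0.0346) were called. In that fit too the exposure difference rests on DE replicates 1 and 7 against FA, so it is not a separate result. Kcnj11 was not called among libraries with number 11 only. No FA library carries number 12, so for DE replicates 3 and 5 the number and the exposure cannot be told apart.

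Genes that work with the channels were examined as 2 further lists. Of 19 channel partners (regulatory subunits, scaffolds and regulators such as Irx5 and Nedd4l), 14 were tested and 0 called, with 3 at an unadjusted p under 0.05, Abcc9, Akap9 and Amigo1, all lower in DE. Over all tested genes, 5.8% were called and 25.6% had an unadjusted p under 0.05. DESeq2 and the likelihood ratio test each called 1, Akap9. The median log2 fold change was -0.14 over these 14 and 0.00 over all tested genes. Of 17 sodium-potassium pump subunits and potassium-coupled cotransporters, 13 were tested and 0 called, also with DESeq2 and the likelihood ratio test, with 4 at an unadjusted p under 0.05. Among those were Fxyd5 (log2 fold change 0.49, SE 0.20), Slc12a5 (0.58, SE 0.21) and Slc12a7 (-0.35, SE 0.13).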

How the data were processed

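RNA-seq libraries were made with a stranded poly-A kit from NCMs of 8 male PND0 hearts, whereas the methods give n = 3 per group. The authors aligned reads to mm10 with Tophat and an Ensembl transcriptome, marked but kept duplicates, and used featureCounts to give the deposited raw counts, 1 row per Entrez gene. The counting annotation, strand setting and treatment of multi-mapped reads are not given in the sources used here, which affects overlapping genes. The limits given for a count of 0 cover counting error only, while intervals of fold changes include the spread between libraries.

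Entrez IDs were matched to RefSeq symbols on GRCm38.p6 (25275 of 27179), and exon lengths came from GENCODE. Of 98 Kcn symbols, 4 noncoding ones were left out. Libraries were grouped by their treatment label. Counts were filtered with filterByExpr (minimum count 10), scaled by TMM factors and fitted in edgeR 4.0.16 under R 4.3.3 (quasi-likelihood F test, exposure alone in the model), with Benjamini-Hochberg adjustment over all 14966 tested genes. Named genes were called members, members at an unadjusted p under 0.05, the 3 highest of each subfamily per kb in FA, and a list of channels of the cardiac action potential. Partner genes were named when at an unadjusted p under 0.05 or as partner of a named channel. The members and lists were chosen with earlier results of these data known, so they are not independent of them. Results were recomputed with DESeq2 1.42.0, with the likelihood ratio test of edgeR, with the 25% difference built into the test, other scalings and filters, the number in the sample name as a term or restricted to 11, offsets for transcript length and GC content (known for 96.9% of tested genes), and each library left out. Some genes that the rule names are counted but not reported here. Code was tested on simulated data. No pair of libraries agreed within sampling noise.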

Additional observations from a re-analysis of the deposited data

Results flagged for a closer look

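In 3 of the 68 groups of 4 libraries looked at (34 named genes in FA and in DE), 1 library lay far from the other 3, where chance gives about 1 in 20. Kcna5 stood at 12.6 CPM in DE replicate 3, against 8.15 to 8.71 CPM in the other DE libraries. Kcnma1 stood at 1.04 CPM in FA replicate 2, against 0.282 to 0.349 CPM in the other FA libraries. It also stood at 1.27 CPM in DE replicate 1, against 0.0998 to 0.213 CPM in the other DE libraries. Without DE replicate 3 the log2 fold change of Kcna5 between DE and FA was 0.49 (adjusted p = 0.0836 with edgeR's quasi-likelihood test), so it was no longer called.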

How the results depend on the processing

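The 6 calls (4 higher, 2 lower; all tested genes 5.8%) became 0 with the 25% difference built into the test (all tested genes 0.762%), 2 with the number in the sample name as a term (0 higher; all tested genes 2.99%) and 1 among libraries with number 11 (0 higher, 1 lower; all tested genes 1.75%). Length and GC offsets gave 9 calls (all tested genes 10.2%), 6 of them lower, with Kcng2, Kcnc4, Kcnh2 and Kcnj11 added and Kcne1l lost. Leaving out single libraries gave 0 to 8 calls, 0 to 5 of them higher and 0 to 3 lower. With DESeq2 (all tested genes 7.45%) and the likelihood ratio test (10.7%) there were 7 (Kcnj4 added), with RLE factors (5.75%), library totals (6.82%) or no filter (3.98%) 6, and with a mean of at least 1 CPM (6.29%) 5. For partner and transport genes the 0 calls became 1 (Akap9) with DESeq2, with the likelihood ratio test, without FA replicate 3 and without DE replicate 1 (range over omissions 0 to 1), and 3 (Akap9, Cav3 and Abcc9) with offsets. The 4 calls between DE numbers 12 and 11 (all tested genes 2.06%) became 11 with the likelihood ratio test (8.51%), 0 with the built-in difference (0.020%), 1 with library totals (0.174%), 12 without a filter (5.15%), 1 with offsets (1.09%) and 0 to 8 over omissions (0 to 6.67%). The cause of these shifts was not tested.

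Signs turned in 9 uncalled genes, whose log2 fold changes as reported lay between -0.30 (Kcnt2) and 0.10 (Kcnd3). With library totals alone they became 0.044 for Kcne1, 0.015 for Kcnj12 and 0.068 for Kcnd2. With the number as a term and with number 11 only, they became 0.033 and 0.029 for Kcnt2, 0.0065 and 0.0016 for Kcnj12, 0.21 and 0.21 for Kcnd2 and -0.018 and -0.023 for Kcnq1. With offsets they became -0.00247 for Kcnj8, -0.014 for Kcnk6, 0.045 for Kcnd2 and -0.055 for Kcnq1. For Kcnd2, of -0.00 in the comparison as reported, the likelihood ratio test gave 0.0016, no filter 0.0066 and a mean of at least 1 CPM 0.0013. Over omissions of 1 library, the range was -0.13 to 0.071 for Kcne1, -0.25 to 0.064 for Kcnn1, -0.17 to 0.041 for Kcnj12, -0.0053 to 0.26 for Kcnj8, -0.060 to 0.17 for Kcnk6, -0.14 to 0.13 for Kcnd2, -0.42 to 0.32 for Kcnd3 and -0.017 to 0.11 for Kcnq1. Levels per kb in FA of the 34 named genes moved by less than 1 SD with library totals alone. Where an omission left 1 DE library with a number, that library was assumed to vary like the others. No paired analysis was possible because the groups share only 1 replicate number. Depth limits the 41 untested members and the called genes near 1 CPM (Kcnk7, Kcnab2 and Kcne1l).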

Other observations

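Among the members left out by the filter on low counts, Kcne3 and Kcnh3 were singled out after their values were seen. Kcne3, an accessory subunit known to pair with Kcnq1 in epithelia, measured 1.89 and 1.67 CPM in DE replicates 3 and 5 and 0.199 to 0.393 CPM in the other 6 libraries. Kcnh3, a relative of Kcnh2 known from brain, measured 0.803 and 1.02 CPM in DE replicates 3 and 5 and 0.0564 to 0.480 CPM in the others. In both, the libraries whose names carry the number 12 were the highest.

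In FA replicate 3, Kcna1, an axonal channel, measured 1.30 CPM against 0.267 to 0.395 CPM in the other FA libraries, and Kcna2 0.897 CPM against 0.395 to 0.492 CPM.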
